A study of Homo sapiens with 6 samples.

Results

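The genes described here are the nuclear genes that build, copy, cut, modify, protect and degrade the RNA of mitochondria. They were taken by name from a fixed list of 45 symbols, all 45 of which were found once among the 60419 genes of the deposited count table. The cells were 12Z, an immortalised human endometriotic line with a wild type genotype, kept in medium with charcoal-stripped serum. The Myrrh group (3 libraries) received myrrh extract at 100 µg/mL in DMSO for 12 h, and the DMSO group (3 libraries) received the vehicle alone. The comparison asks which genes respond to the extract. All libraries came from 1 line. Since the labels do not tell whether each was its own culture, the p-values reflect library-to-library variation only, and that may be technical.

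Mitochondria carry a small circular genome that is read from a few promoters into long transcripts. A single-subunit RNA polymerase, POLRMT, does this with TFAM, which bends and packs the DNA, and TFB2M, which helps open the promoter. The tRNAs within the long transcripts are then cut out, which frees the mRNAs and rRNAs between them. The LRPPRC and SLIRP complex holds the mRNAs stable, a dedicated polymerase adds their poly(A) tails, and a helicase with a partner nuclease, SUPV3L1 and PNPT1, degrades surplus and antisense RNA. All of these proteins are encoded in the nucleus, and the factors NRF1 and GABPA, with coactivators of the PGC-1 family, are known to drive many of their genes.

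Promoter sequences are shown for 4 genes, because NRF1 and GABPA are themselves members and the searched motifs could therefore be set beside the response. Each is the 250 bases before the gene start from RefSeq (GRCh38.p14), 5′ to 3′ along the gene, with matches in capitals. The NRF1 motif searched was the core CGCATGCG and the GABPA motif CCGGAAGT, on both strands. POLRMT holds both and lies at chr19:633538-633787 on the minus strand, TFB1M holds the NRF1 motif at chr6:155314485-155314734 on the minus strand, and PDE12 holds the GABPA motif at both ends of chr3:57556024-57556273 on the plus strand. SUPV3L1, at chr10:69179984-69180233 on the plus strand, is shown as the member with the largest response and holds no match.
POLRMT: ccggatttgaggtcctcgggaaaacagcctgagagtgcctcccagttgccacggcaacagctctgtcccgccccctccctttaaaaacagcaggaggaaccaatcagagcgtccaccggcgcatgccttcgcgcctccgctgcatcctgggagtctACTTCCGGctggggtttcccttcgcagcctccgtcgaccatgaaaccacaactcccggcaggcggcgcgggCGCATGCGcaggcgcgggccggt
TFB1M: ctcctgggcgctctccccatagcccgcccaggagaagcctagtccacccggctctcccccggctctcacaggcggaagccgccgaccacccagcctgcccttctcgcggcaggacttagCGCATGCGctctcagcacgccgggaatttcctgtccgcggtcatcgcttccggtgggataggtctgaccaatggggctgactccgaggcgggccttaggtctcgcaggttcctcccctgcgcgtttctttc
PDE12: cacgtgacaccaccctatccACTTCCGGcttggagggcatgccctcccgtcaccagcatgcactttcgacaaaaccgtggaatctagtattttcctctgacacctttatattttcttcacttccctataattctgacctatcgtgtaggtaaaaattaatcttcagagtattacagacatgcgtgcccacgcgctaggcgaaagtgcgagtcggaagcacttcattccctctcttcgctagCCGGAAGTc
SUPV3L1: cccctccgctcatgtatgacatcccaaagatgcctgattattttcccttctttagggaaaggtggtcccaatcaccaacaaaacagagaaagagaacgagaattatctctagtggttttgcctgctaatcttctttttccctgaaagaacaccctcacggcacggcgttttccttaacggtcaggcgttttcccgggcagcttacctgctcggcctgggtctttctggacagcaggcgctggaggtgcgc

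Of the 45 members, 39 had a promoter in the RefSeq table. The GABPA motif was present in 8 of these 39 (20.51%), against 6.99% of 11438 promoters of tested genes and 3.64% of all 27305 promoters. The members' promoters were also richer in GC, with a median of 63.2% against 58.0% for all promoters, and the part of base composition in the motif shares was not tested. Its holders were ELAC2, GABPA, MRM2, MTERF1, MTERF4, PDE12, POLRMT and TRMT10C. They did not share a direction, since 6 of them rose, MTERF4 fell and ELAC2 did not pass the test. The NRF1 core was in 5 of 39 (12.82%), against 3.3% of the promoters of tested genes and 1.86% of all promoters. POLRMT, TFB2M and MTPAP held it and rose, TFB1M held it and fell, and MRM1 held it and did not pass the test. A longer form of 10 letters, with a G before and a C after the core, was searched first. It matched 2 of the 39, POLRMT and TFB1M, against 1.92% of the promoters of tested genes. A motif of ATF4, TGATGNAA (1.43% of promoters of tested genes, on both strands), matched none of the 39.

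Depth was 22454783 to 27588151 estimated counts per library. Levels are given as CPM, the count scaled to library sizes adjusted with TMM factors, and levels of different genes are compared only as TPM, which also divides by transcript length. Both are shares of the RNA sequenced, so fewer transcripts per cell and more RNA of other genes cannot be told apart. Keratins KRT8, KRT18 and KRT19, markers of epithelium, were abundant, while the epithelial cadherin CDH1 was near 0 (0.176 ± 0.0584 CPM in DMSO). The summed TPM of 6 epithelial markers was 1574 to 1605 in DMSO and 1162 to 1266 in Myrrh, and that of 6 mesenchymal markers 4117 to 4227 and 2225 to 2346. These sums rest on a few abundant genes: EPCAM (log2 fold change 1.13) and KRT7 (0.53) rose among the epithelial markers, and CDH2 (0.25) and FN1 (0.31) among the mesenchymal ones. For 5 leukocyte markers it was 30.27 to 33.82 and 53.57 to 76.76, with the T cell marker CD3E at 0 in every library. That sum was nearly all CD68, which went from 29.2 to 65.3 TPM, while PTPRC (-2.88) and CD14 (-2.28) fell from low levels. For 4 endothelial markers the sum stayed at or below 0.27. The part of these shifts in the members' values was not tested. Mitochondrially encoded mRNAs took 13.5% ± 0.34 of all counts in DMSO and 4.69% ± 0.477 in Myrrh (SD, n = 3).

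Of the 45 members, 44 had enough counts to be tested, and 39 passed an adjusted p of 0.05, 28 higher and 11 lower in Myrrh (edgeR quasi-likelihood test, Benjamini-Hochberg adjustment over all 16395 genes tested). So many genes moved in this comparison that passing was common by itself: 78.4% of all genes passed, against 88.6% of the tested members. All genes split evenly, 39.3% as higher and 39.1% as lower, while the members' calls were mostly higher. The members' median log2 fold change was 0.31 against -0.02 for all genes, and their median absolute change was 0.42 against 0.61. When at least 5 CPM was required in 3 libraries, the contrast narrowed, with a median of 0.205 for 43 members against 0.0074 for 11912 genes. A change of at least 2-fold was reached by 5 of 44 members, where 29.4% of all genes reached it. Those members were SUPV3L1, NSUN4 and PPARGC1B, all higher, and MTERF2 and POLG2, both lower. The count was 3 with library totals, 3 when at least 5 CPM was required in 3 libraries, and 3 on the authors' log2(TPM + 1) values. NSUN4 had a log2 fold change of 0.93 with library totals and 0.97 with that filter, POLG2 had -0.85 on log2(TPM + 1), and PPARGC1B had 0.93 with library totals, 0.47 on log2(TPM + 1) and was removed by the filter. CPM of the groups did not overlap for 39 members, against 80.2% of all genes. All fold changes below are Myrrh against DMSO with their SE, and all adjusted p-values are from this edgeR fit unless another test is named.

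**Figure D1:**
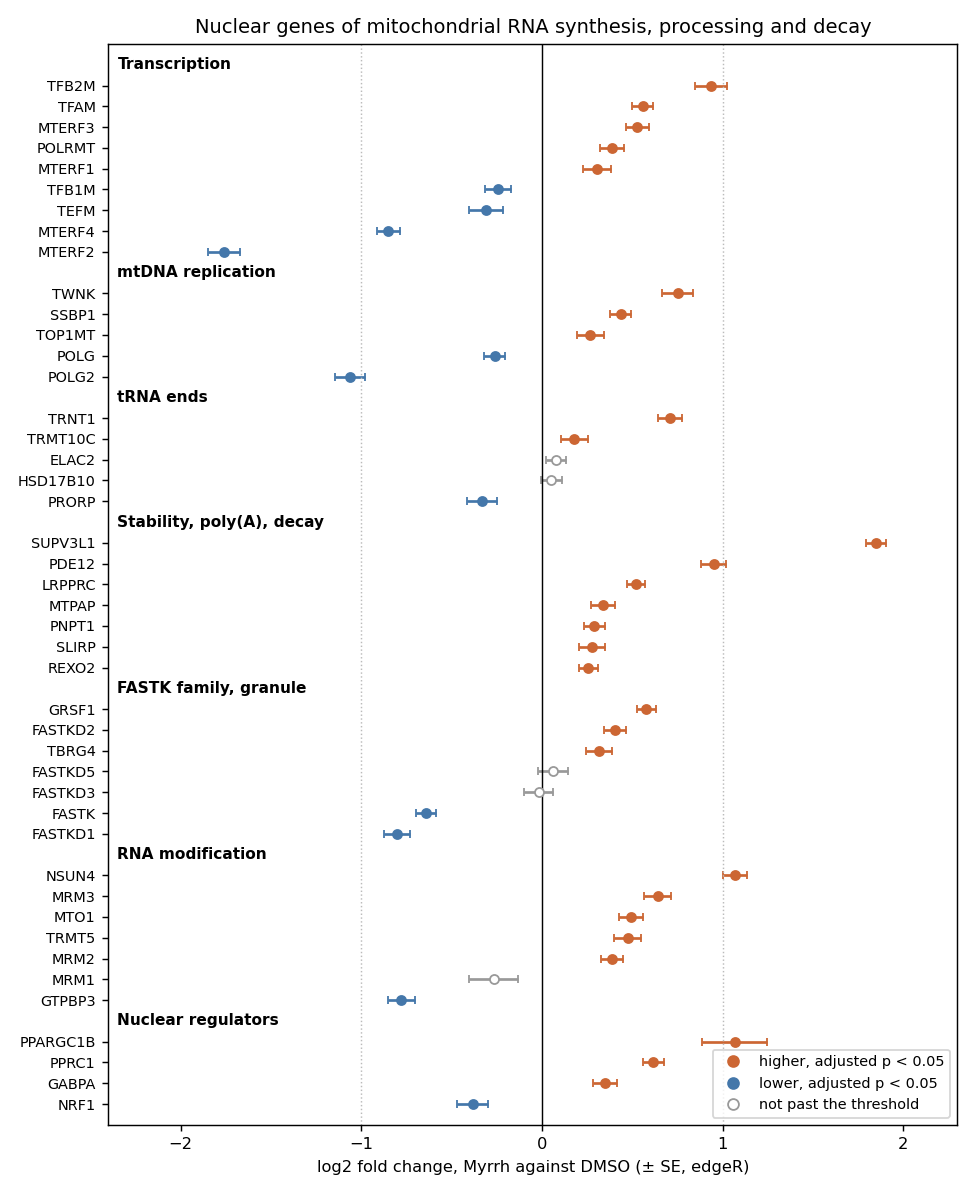
Log2 fold changes of the 44 tested members, Myrrh against DMSO, with SE, ordered within each role. Filled orange points passed as higher (28), filled blue points as lower (11) and open points did not pass (5); dotted lines mark a 2-fold change, and all 7 genes of stability, poly(A) and decay lie to the right of 0.

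The genes that stabilise, tail and degrade mitochondrial RNA rose in 7 of 7 cases, where 39.3% of all genes passed as higher. SUPV3L1, the helicase of the mitochondrial degradosome, had the largest increase of any member. The gene spans chr10:69180232-69209099 (GENCODE release 29, GRCh38) with 15 exons. It stood at 28.2, 28.7 and 27.7 CPM in the DMSO libraries and at 101, 100 and 103 CPM in the Myrrh libraries. The Myrrh libraries were all far above the DMSO libraries and the spread within each group was small. The fold change was 3.6 (log2 1.85 ± 0.06, adjusted p = 1.47e-20), a change larger than that of 90.5% of all genes. In TPM, SUPV3L1 moved from rank 10 among the 45 members (36.1 ± 1.5) to rank 3 (129 ± 1.48, n = 3). PNPT1, the exoribonuclease that works with this helicase, read 43.3, 39.3 and 44.0 CPM in DMSO and 51.4, 51.0 and 52.2 in Myrrh. Its groups did not overlap, but the increase was 1.22-fold (0.29 ± 0.06, adjusted p = 8.45e-05). PNPT1 has 2 annotated pseudogenes, so its estimated counts may include or lose shared reads.

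PDE12, a nuclease that trims poly(A) tails inside mitochondria, had the second largest increase of the group. Its DMSO libraries read 17.7, 16.6 and 18.0 CPM and its Myrrh libraries 35.4, 32.8 and 32.7, with no overlap. The change was 1.93-fold (0.95 ± 0.07, adjusted p = 1.69e-12). MTPAP, the poly(A) polymerase whose tails PDE12 shortens, rose by 0.34 ± 0.07. LRPPRC, the large RNA-binding protein that keeps mitochondrial mRNAs stable, was at 148, 148 and 152 CPM in DMSO and at 220, 210 and 213 CPM in Myrrh. All Myrrh libraries exceeded all DMSO libraries for it (0.52 ± 0.05, adjusted p = 7.1e-10). Its small partner SLIRP, the member with the highest TPM in both groups, read 41.6, 39.7 and 36.2 CPM in DMSO and 45.4, 53.1 and 43.5 in Myrrh. The rise of SLIRP was 0.28 ± 0.07 (adjusted p = 0.00155), and REXO2, which removes the short RNA fragments left by decay, rose by 0.26 ± 0.05 from 68.2, 63.9 and 65.8 CPM to 78.0, 79.2 and 79.1. When plain library totals replaced the TMM factors, SLIRP (adjusted p = 0.093) and REXO2 (0.059) no longer passed, and no member of this group changed sign under any alternative.

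**Figure D2:**
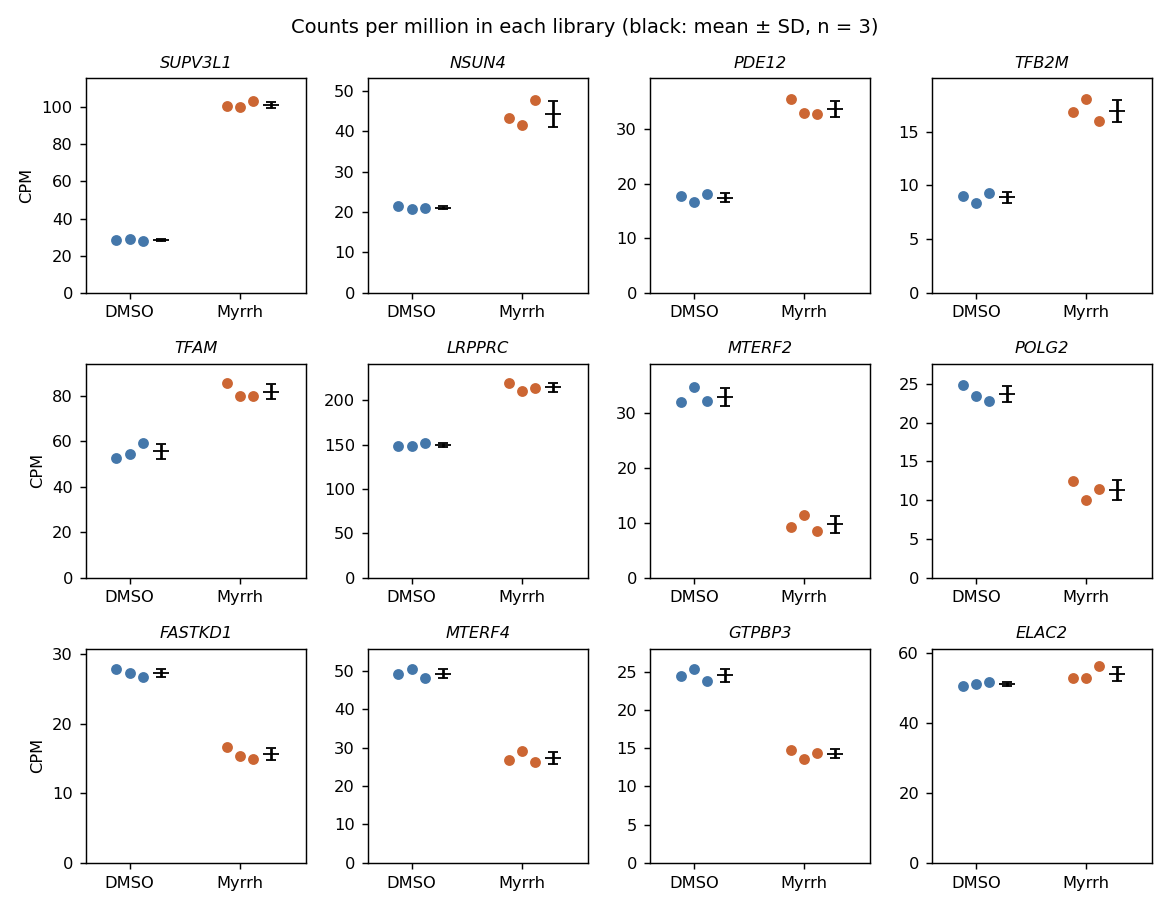
CPM of 12 members in each library, with axes from 0; points are libraries and black marks the mean ± SD of 3. SUPV3L1 lies near 28 CPM in DMSO and 100 CPM in Myrrh, MTERF2 is lower in every Myrrh library, and ELAC2 differs little.

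Of the 9 transcription genes, 5 rose and 4 fell. The initiation factors went up and the termination factor family moved in both directions. TFB2M, which melts the promoter, read 9.05, 8.33 and 9.27 CPM in DMSO and 16.9, 18.0 and 16.0 in Myrrh, 1.91-fold higher without overlap (0.93 ± 0.09, adjusted p = 3.22e-10). TFAM, the main protein coating mitochondrial DNA, went from 52.8, 54.3 and 59.2 CPM to 85.4, 79.6 and 79.8 (0.56 ± 0.06, adjusted p = 1.3e-09). The polymerase POLRMT itself was at 35.4, 37.6 and 32.6 CPM in DMSO and 43.9, 44.5 and 49.7 in Myrrh. Its increase of 0.39 ± 0.07 (adjusted p = 8.4e-06) was 0.13 on the authors' log2(TPM + 1) values, where it did not pass (adjusted p = 0.13). TFB1M, a relative of TFB2M that methylates the small rRNA, fell by 0.24 ± 0.07. TEFM, the elongation factor, fell by 0.31 ± 0.09, which did not pass on log2(TPM + 1) (-0.05, adjusted p = 0.586). On the opposite strand, TEFM shares 542 exonic bases with AC130324.3 (-1.63) and 301 with ADAP2 (0.94). TFAM has 2 annotated pseudogenes and POLRMT has 1.

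MTERF2, a DNA-binding member of the termination factor family, had the largest decrease of all 44 tested members. It is annotated at chr12:106977291-106987166 with 2 exons. Its DMSO libraries read 31.8, 34.7 and 32.0 CPM and its Myrrh libraries 9.23, 11.4 and 8.41. Every Myrrh library was below a level of 12 CPM and every DMSO library above 31. The decrease was 3.39-fold (log2 -1.76 ± 0.09, adjusted p = 2.62e-15), and -1.17 on log2(TPM + 1). MTERF2 shares 422 exonic bases with TMEM263 on the opposite strand, a gene that rose by 0.55, and the sources used here do not say whether counting used strand. MTERF4, which guides a methyltransferase to the large ribosomal subunit, went from 49.2, 50.3 and 48.0 CPM to 26.7, 28.97 and 26.1 (-0.85 ± 0.06, adjusted p = 1.76e-12). It shares 5071 exonic bases with SNED1 on the opposite strand, a gene at 2.07 CPM in DMSO with a log2 fold change of -1.13. The other 2 members of the family rose, MTERF3 by 0.53 ± 0.06 and MTERF1 by 0.30 ± 0.08. The MTERF1 call was lost with library totals (adjusted p = 0.0649) and on log2(TPM + 1) (0.187).

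Among 5 genes of mitochondrial DNA replication, 3 rose and both polymerase subunits fell. POLG2, the accessory subunit that holds the polymerase on DNA, read 24.8, 23.5 and 22.8 CPM in DMSO and 12.5, 9.99 and 11.5 in Myrrh, which is 2.09-fold lower (-1.06 ± 0.08, adjusted p = 1.02e-11). POLG, the catalytic subunit, changed less, from 62.1, 61.8 and 59.7 CPM to 50.8, 47.0 and 55.5 (-0.26 ± 0.06, adjusted p = 0.000316). The groups did not overlap for either subunit. TWNK, the replicative helicase, rose from 10.3, 9.33 and 10.7 CPM to 16.9, 16.5 and 17.7 (0.75 ± 0.09, adjusted p = 1.08e-08). SSBP1, which coats single-stranded mitochondrial DNA, rose from 83.4, 80.8 and 77.1 CPM to 103, 120 and 104 (0.44 ± 0.06, adjusted p = 2.9e-07). TOP1MT, a topoisomerase, rose by 0.27 ± 0.07, which did not pass with library totals (adjusted p = 0.125) and on log2(TPM + 1) (0.0584). POLG shares 458 exonic bases with FANCI on the opposite strand, and FANCI fell by 0.70.

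Among the proteins that cut the ends of mitochondrial tRNAs, ELAC2, HSD17B10 and TRMT10C changed little and PRORP was lower in counts. ELAC2, which cuts the 3′ end, was at 50.7, 51.3 and 51.8 CPM in DMSO and 52.9, 52.9 and 56.5 in Myrrh, and did not pass (0.08 ± 0.06, adjusted p = 0.204). The 5′ end is cut by a complex of TRMT10C, HSD17B10 and the nuclease PRORP. HSD17B10 had a log2 fold change of 0.05 ± 0.06 (adjusted p = 0.429), and its groups overlapped. TRMT10C rose by 0.18 ± 0.08 (adjusted p = 0.0328) with groups that overlapped, from 22.3, 21.3 and 21.5 CPM to 24.9, 26.8 and 21.9. That call did not hold without DMSO replicate 2 or 3, without Myrrh replicate 1 or 2, or with DESeq2, among others (adjusted p from 0.00253 to 0.674 over 14 alternatives). PRORP went from 23.1, 20.5 and 25.5 CPM to 18.2, 19.8 and 16.8 (-0.33 ± 0.08, adjusted p = 0.000911). On log2(TPM + 1) the difference of PRORP was 0.05, with the opposite sign and adjusted p = 0.687. TRNT1, which adds the CCA end to every tRNA, rose clearly, from 21.0, 20.9 and 20.1 CPM to 34.9, 32.5 and 33.7 (0.71 ± 0.07, adjusted p = 2.37e-10).

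Of the FASTK family and its companion GRSF1, 3 rose, 2 fell and 2 did not pass. Several of these proteins are found in the RNA granules where mitochondrial transcripts are processed. GRSF1, an RNA-binding protein of these granules, rose from 55.9, 52.0 and 56.0 CPM to 79.6, 84.1 and 80.9 (0.58 ± 0.05, adjusted p = 2.81e-10). FASTKD2, needed for the large rRNA, rose from 28.2, 28.5 and 29.6 CPM to 38.9, 37.2 and 38.0 (0.40 ± 0.06, adjusted p = 1.45e-06). In both genes every Myrrh library was above every DMSO library. FASTKD1 fell from 27.9, 27.4 and 26.8 CPM to 16.6, 15.4 and 14.9 (-0.80 ± 0.07, adjusted p = 1.21e-10). FASTK, whose mitochondrial form is tied to the MT-ND6 mRNA, fell from 110, 113 and 100 CPM to 69.0, 70.2 and 67.7 (-0.64 ± 0.05, adjusted p = 2.9e-11). These decreases were also without overlap. TBRG4, also called FASTKD4, rose by 0.32 ± 0.07, and FASTKD3 (-0.02 ± 0.08) and FASTKD5 (0.06 ± 0.08) did not pass.

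Of 7 RNA modification genes, 5 rose, 1 fell and 1 did not pass. NSUN4, a methyltransferase of the small rRNA that also forms a complex with MTERF4 on the large subunit, read 21.6, 20.8 and 21.0 CPM in DMSO and 43.2, 41.7 and 47.9 in Myrrh. The groups stood well apart, at 2.1-fold (1.07 ± 0.07, adjusted p = 6.89e-14). The ribose methyltransferases of the large rRNA were MRM3, at 16.4, 16.7 and 16.4 CPM against 23.5, 26.3 and 27.5 (0.64 ± 0.07, adjusted p = 1.59e-08), MRM2 and MRM1. MRM2 rose from 37.4, 36.2 and 40.3 CPM to 49.1, 52.0 and 48.1 (0.39 ± 0.06, adjusted p = 2.14e-06). MRM1, the least abundant of them, had a value of -0.27 ± 0.14 that did not pass (adjusted p = 0.0775), although it passed without Myrrh replicate 1 (-0.43, adjusted p = 0.0089), with library totals and with a filter of 5 CPM in 3 libraries. TRMT5, a tRNA methyltransferase, rose by 0.47 ± 0.07. On the opposite strand, TRMT5 shares 245 exonic bases with SLC38A6, which rose by 1.15. MRM3 shares 721 with GLOD4, which fell by 0.23. MTO1 and GTPBP3 together modify the wobble base of several tRNAs and moved apart. MTO1 rose by 0.49 ± 0.07, and GTPBP3 fell from 24.4, 25.3 and 23.7 CPM to 14.8, 13.6 and 14.4 (-0.78 ± 0.07, adjusted p = 3.82e-10).

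Among the nuclear regulators, the PGC-1 family coactivators rose where the main fit could test them and the 2 DNA-binding factors split. PPRC1, the PGC-1 relative of dividing cells, was by far the most abundant coactivator in TPM. It read 46.5, 46.4 and 45.1 CPM in DMSO and 71.9, 64.3 and 75.4 in Myrrh (0.62 ± 0.06, adjusted p = 5.41e-10). PPARGC1B, the gene of PGC-1beta, rose from 2.06, 2.01 and 2.06 CPM to 4.70, 3.27 and 4.88 (1.07 ± 0.18, adjusted p = 7.36e-06). Its difference on log2(TPM + 1) was 0.47, where low values are compressed. PPARGC1A, the gene of PGC-1alpha, was too low to be tested in the main fit. It had 6, 7 and 6 counts in the DMSO libraries and 13, 11 and 9 in the Myrrh libraries. Tested with no filter on low counts, its log2 fold change was 1.06 ± 0.51 and did not pass (adjusted p = 0.0751). PPARGC1A also entered the test when any DMSO library or Myrrh replicate 3 was left out. Of these fits, it passed as higher only in the one without Myrrh replicate 3. NRF1 fell from 18.0, 16.4 and 19.3 CPM to 12.5, 14.3 and 14.5 (-0.38 ± 0.09, adjusted p = 0.000245). GABPA rose from 29.4, 28.9 and 32.0 CPM to 41.7, 37.6 and 35.6 (0.35 ± 0.07, adjusted p = 4.63e-05). GABPA shares 413 exonic bases with ATP5PF (-0.14) on the opposite strand and has 1 annotated pseudogene.

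Several members work as partners, and the ratio of partners within a library does not depend on how libraries are scaled. These pairs were chosen after the fold changes were known, so the ratios are a description without a test. A ratio of CPM depends on transcript length, so its level is not informative. Its change between groups also takes in any change in the length assigned to either gene. Such a change passed a test, given below, for PRORP, NSUN4, POLRMT and GTPBP3. NSUN4 and MTERF4, which form a complex, had a ratio of 0.43 ± 0.0138 in DMSO and 1.63 ± 0.196 in Myrrh (SD, n = 3), 3.79-fold higher. MTO1 to GTPBP3 went from 1.1 ± 0.0904 to 2.65 ± 0.0544, 2.41-fold higher. SUPV3L1 to PNPT1 went from 0.67 ± 0.0537 to 1.97 ± 0.0108, 2.94-fold higher. In these 3 pairs the libraries of the groups were far apart, because 1 partner fell or rose much less than the other.

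For the related methyltransferase genes TFB2M and TFB1M, the ratio rose from 0.33 ± 0.00901 to 0.746 ± 0.00666. POLG2 to POLG fell from 0.387 ± 0.0109 to 0.222 ± 0.0217. The tail trimmer PDE12 to the tail maker MTPAP went from 0.693 ± 0.0136 to 1.06 ± 0.0249. By contrast, LRPPRC to SLIRP stood at 3.83 ± 0.337 and 4.57 ± 0.527, and these groups overlapped. TFB2M to POLRMT rose from 0.254 ± 0.0316 to 0.37 ± 0.0434. The elongation factor TEFM to POLRMT fell from 0.388 ± 0.0312 to 0.24 ± 0.0416, and PRORP to TRMT10C from 1.06 ± 0.115 to 0.745 ± 0.0207. In TPM, which divides by the assigned length, PRORP was 14.4 ± 2.07 in DMSO and 14.9 ± 0.929 in Myrrh. TRMT10C was 19.0 ± 0.441 and 21.9 ± 2.21, TEFM 15.5 ± 0.563 and 14.9 ± 1.115, and POLRMT 42.3 ± 1.86 and 46.4 ± 3.5. The part of assigned length in these falls was not tested.

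**Figure D3:**
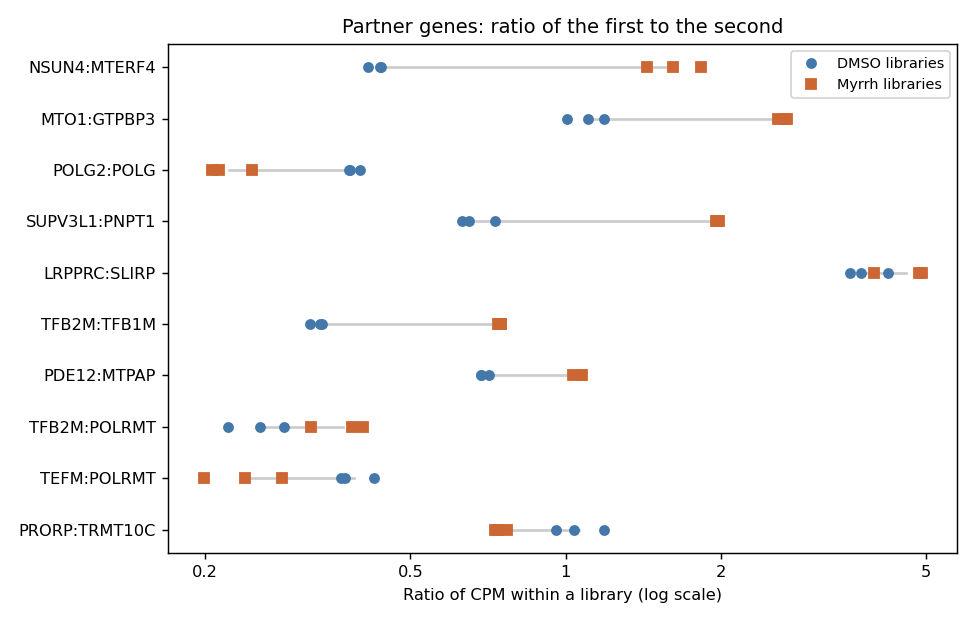
Ratio of CPM of 10 pairs of genes within each library, on a log axis; circles are DMSO and squares Myrrh libraries, and grey lines join the means. The NSUN4 to MTERF4 ratio moved most, from 0.43 to 1.63, and the LRPPRC to SLIRP ratio overlapped between groups.

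Per transcript length, SLIRP (241 ± 13.6 TPM in DMSO) and SSBP1 (206 ± 6.64) were the most abundant members. REXO2 (100.0 ± 5.09), HSD17B10 (98.8 ± 1.43) and FASTK (98.3 ± 7.37) followed and did not differ from each other beyond their spread. The lowest were PDE12 (3.91 ± 0.383), PPARGC1B (0.323 ± 0.0839) and PPARGC1A (0.05). The polymerase POLRMT, at 42.3 ± 1.86 TPM, stood above its factors TFAM (28.1 ± 0.468) and TFB2M (7.07 ± 0.524). In Myrrh, POLRMT (46.4 ± 3.5) and TFAM (50.4 ± 3.06) were close to each other relative to their spread, while TFB2M (13.8 ± 0.643) stayed lower.

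The ratio of estimated count to TPM gives the effective length that RSEM assigned to a gene, which changes when reads are assigned to longer or shorter transcripts. It was expressed relative to the median gene of each library, for genes with at least 2 TPM and 50 counts in every library, and tested with limma across 11203 genes. Among 43 members measured, 6 passed an adjusted p of 0.05, near the background of 17.7% of all genes. PRORP had a relative length of 0.97, 1.01 and 0.967 in DMSO and 0.785, 0.776 and 0.78 in Myrrh, a fall of 20.4% (limma adjusted p = 0.00152). NSUN4 fell by 14.9%, from 1.56, 1.54 and 1.61 to 1.34, 1.34 and 1.32 (limma adjusted p = 0.00382). For POLRMT it rose by 24.2%, from 0.513, 0.512 and 0.5 to 0.665, 0.599 and 0.632 (limma adjusted p = 0.0108). The groups of these 3 genes did not overlap, and each passed without any single library. PPRC1 (15%), GTPBP3 (9.9%) and TBRG4 (5.15%) also passed as longer but lost the call without some libraries. PRORP overlaps 2858 exonic bases of another annotated gene on the same strand, AL121594.1, so reads could be split between them.

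**Figure D4:**
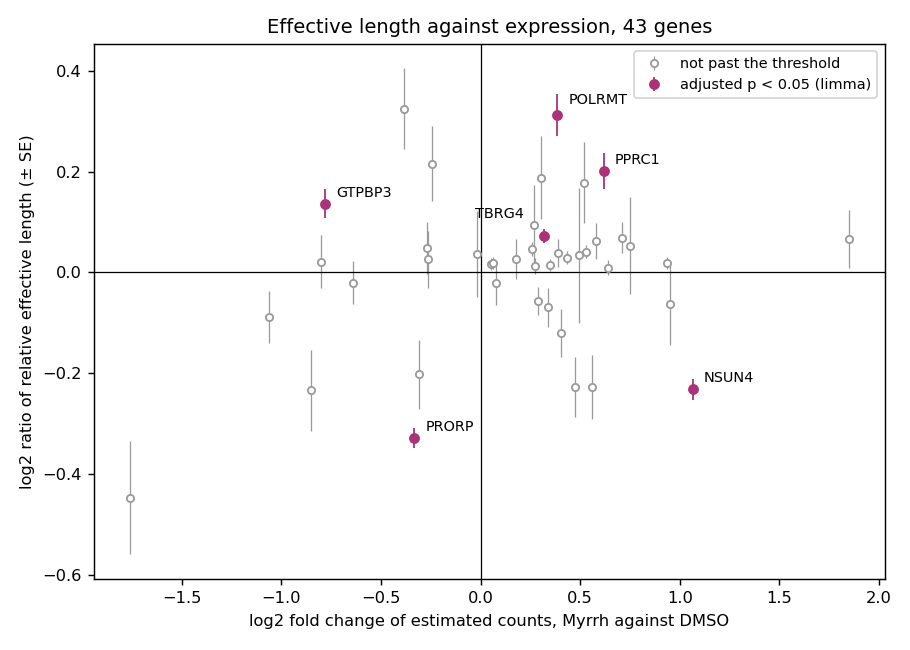
Change in relative effective length (log2 ratio with SE, vertical) against change in estimated counts (log2, horizontal) for 43 members, Myrrh against DMSO. Filled points passed limma's adjusted p of 0.05: PRORP and NSUN4 lie below 0, and POLRMT, PPRC1, GTPBP3 and TBRG4 above.

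The wider machinery was read from lists chosen by function. Of all genes, 78.4% passed, 39.3% as higher and 39.1% as lower. In the lists below, in order, 75%, 93.1%, 93.8% and 90% of the tested genes passed. Of 16 other genes of mitochondrial DNA upkeep, 8 rose and 4 fell (median log2 fold change 0.12), from LONP1, the matrix protease that also degrades TFAM (1.55 ± 0.05), to DNA2, a nuclease and helicase (-1.10 ± 0.07). Of 29 other RNA modification and granule genes, 21 rose and 6 fell (median 0.41). ALKBH1, an oxygenase acting on a mitochondrial tRNA, had the highest value (1.28 ± 0.08) and OSGEPL1, a tRNA-modifying enzyme, the lowest (-0.77 ± 0.08). Of 16 mitochondrial translation factors, 12 went up and 3 went down (median 0.36), from RMND1 (1.49 ± 0.08) to MTRFR, a ribosome rescue factor (-0.45 ± 0.07). Of 10 tested genes linked to PGC-1, 5 rose and 4 fell, from SIRT1, a deacetylase (0.92 ± 0.06), to ESRRG, a nuclear receptor (-1.44 ± 0.33), whose level was 1.02 ± 0.137 CPM in DMSO. The ESRRG difference was -0.19 on log2(TPM + 1).

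The products of this machinery moved apart. All 13 mitochondrially encoded mRNAs fell, from -0.61 ± 0.07 for MT-ND2 to -2.20 ± 0.07 for MT-ND6. The rRNAs rose, MT-RNR1 from 681 ± 53.8 to 5967 ± 716 CPM (3.13 ± 0.09, adjusted p = 2.95e-13) and MT-RNR2 from 7787 ± 136 to 24371 ± 3607 CPM (1.65 ± 0.09, adjusted p = 2.74e-09). Selection of poly(A) RNA is not stated in the labels, and the part of selection in the rRNA values was not tested.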

How the data were processed

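Libraries were made with a TruSeq RNA kit from 1.5 µg of total RNA, per the labels' protocols. The authors deposited estimated counts per gene, unscaled, and a table of log2(TPM + 1); per the submitters' processing notes, STAR, RSEM 1.3.1 and the GRCh38 build were used. The sources used here give no annotation release and no strand setting.

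Counts were rounded and filtered with edgeR's filterByExpr, leaving 16395 genes. TMM factors were 1.05 in DMSO and 0.934 to 0.973 in Myrrh. Groups were compared by quasi-likelihood F-tests in edgeR (edgeR 4.0.16, R 4.3.3, robust, two-sided) over all 6 libraries, with Benjamini-Hochberg adjustment over all genes. Each SE was derived from the fold change and its F statistic. Fold changes on log2(TPM + 1) used limma 3.58.1. Scripts were tested on simulated data in which far fewer genes were changed than passed here. There the share of false calls was above the nominal threshold, and small changes were often missed. Because that setting differs from these data, the share of false calls here is not known, and calls of small changes should be read with care. Libraries of a group differed by more than sampling noise (chi-square 3.65 to 8.71 per degree of freedom).

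Every member is named; values per library are given for up to 2 called members at each end of a role and for 11 central genes of the pathway, and each other list is given with its extremes. Members and lists were chosen with earlier results of these data known. The effective length fit, the partner pairs and the promoter motifs were added after the data were seen, and the NRF1 motif was shortened to its core after a longer form had been searched; a heat shock element was also searched and is not reported. Gene overlaps of at least 50 exonic bases and pseudogenes came from GENCODE release 29 (GRCh38), matched by identifier for all 45 members. On the opposite strand, 13 members overlap a tested gene: TFB1M, TEFM, MTERF2, MTERF4, POLG, TWNK, PRORP, TRNT1, SLIRP, FASTKD3, MRM3, TRMT5 and GABPA. PRORP, REXO2 and FASTKD5 overlap one on the same strand. Annotated pseudogenes exist for 4 members, POLRMT, TFAM, PNPT1 and GABPA.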

Additional observations from a re-analysis of the deposited data

How the results depend on the processing

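The 39 calls were 35 with library totals, 38 with a filter of 5 CPM in 3 libraries, 38 with DESeq2, 33 on log2(TPM + 1), and 38 to 40 leaving out each library. The 40 came without Myrrh replicate 3, where PPARGC1A, untested in the main fit, was tested and passed as higher. Of the 44 tested members, 35 had the same call in every alternative that tested them (14 alternatives, or 13 for PPARGC1B, which the 5 CPM filter removed), and 9 changed in at least 1. The count of members changed at least 2-fold was 5, and 3 with library totals, 3 with the 5 CPM filter and 3 on log2(TPM + 1); leaving out each library gave 4 to 5. Against the main values of the same genes, the median shift in log2 fold change was -0.14 with library totals and -0.10 with the 5 CPM filter. PRORP reversed on log2(TPM + 1), to 0.05. The count of 6 members with a changed effective length was 3 to 6 leaving out each library, with 3 without DMSO replicate 1 and 3 without DMSO replicate 3, and 9 with a minimum of 5 TPM. The labels do not say whether replicate numbers pair the libraries. No pairing was seen in the correlations of deviations (-0.0596, -0.00454 and 0.0361), which cannot exclude it with 3 libraries per group. With the replicate block 39 members and 12782 genes passed. With 3 libraries per group, an exact permutation test of a single gene cannot go below p = 0.1.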
